A study of Mus musculus with 45 samples.

Results

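The Polycomb genes described here are 36 genes that encode subunits of Polycomb repressive complexes 1 and 2 (PRC1 and PRC2), of the BAP1 deubiquitinase complex (PR-DUB) and the demethylases that act on the same histone mark. They were taken as a list of names, chosen with earlier results of these data known, and matched by Ensembl ID to the 19966 genes of the deposited count table. All 36 were found, and all 36 were among the 14090 genes kept by the filter on low counts. RNA came from livers of C57Bl/6 mice aged 8 to 12 weeks, either wild type (WT) or Uhrf1hepKO (KO), a hepatocyte knockout, by its name, of Uhrf1, whose protein binds hemimethylated DNA and brings the maintenance methyltransferase to replicated DNA. The promoter that drives the recombinase is not given in the sources used here. Livers were taken at baseline, before surgery, or 24, 30, 40, 48 or 96 h, 7 days or 4 weeks following partial hepatectomy, surgery in which some lobes are cut away and the hepatocytes left behind start to divide. That makes 16 groups and 45 poly(A) RNA-seq libraries, with 3 libraries in 13 groups and 2 in the others, which are the WT groups of 30 h and 48 h and the KO group of 7 days.

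PRC2 places methyl groups on lysine 27 of histone H3 through EZH2 or EZH1, held together by EED, SUZ12 and the histone chaperones RBBP4 and RBBP7, and accessory subunits such as JARID2, AEBP2, MTF2, PHF1 and PHF19 set where it binds. PRC1 ubiquitinates histone H2A through RING1 or RNF2 paired with a PCGF protein. In canonical PRC1 a CBX protein reads the methylated H3 tail and PHC proteins link complexes to each other, while variant PRC1 carries RYBP or YAF2 and, in some forms, KDM2B or L3MBTL2. EZH2 is known to be abundant in dividing cells and EZH1 in resting ones, and adult hepatocytes are mostly at rest until tissue is lost.

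Some libraries go against their labels, and this bears on everything said of 96 h. Bmi1 and Phc1 are members whose levels differ between the genotypes elsewhere, and in the 3 libraries labelled WT at 96 h Bmi1 stood at 36.1, 40.4 and 42.8 CPM (reads of the gene relative to the TMM-scaled library size), above the 17.2 to 30.1 of the other 19 WT libraries. Phc1 was at 1.83, 0.742 and 1.35 CPM there, against 1.72 to 5.51 in the other WT libraries. Outside the set, Bglap3 and Rhox5 also marked the genotypes: Bglap3 was at 9.38 to 28.4 CPM in those 3 libraries and at most 1.53 in the other WT ones, and Rhox5 at 2.86 to 9.58 against at most 0.59. Bmi1 was raised under the KO label too, with a range of 39.2 to 46.0 CPM against 26.9 to 38.9 for the other 20 KO libraries. A high Bmi1 level at this time thus does not by itself mark the genotype. Values at 96 h are therefore kept apart, and tests over the time course use the 6 other times. Uhrf1 itself, counted over the whole gene, was at 27.5 to 107 CPM in WT and 3.59 to 8.95 CPM in KO at 40 h. At 96 h it was at 0.148 to 0.792 CPM in the libraries labelled WT and 0.270 to 2.07 in those labelled KO. Total counts per library lay between 12.85 M and 23.13 M. Nothing in the labels states that each library is a different mouse, and the p-values therefore reflect the spread among libraries, which may be technical.

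Promoter sequence is shown for 5 genes: Ezh2, Suz12 and Phf19, which rose at 40 h in WT, Ezh1, which fell, and Bmi1, which differed between the genotypes. The letters come from the RefSeq promoter table of the GRCm38.p6 build, which held 31 of the 36 members. They are 5′ to 3′ on the strand of the gene and stop before the RefSeq start. For Ezh2 and Phf19 the stretch is shortened to leave out annotated exons. The whole Ezh2 window lies inside the gene as GENCODE M21 places it, with its start at 47595341. It is upstream of the RefSeq start only. Capitals mark 4 kinds of word searched on both strands in the 250 bases before each start: E2F words (TTTCCCGC, TTTGGCGC or TTTCGCGC), the CHR word TTTGAA, the E-box CACGTG and CCAAT. No word holds another, and the words were chosen with the values known.
Ezh2, chr6:47595059-47595183, minus strand: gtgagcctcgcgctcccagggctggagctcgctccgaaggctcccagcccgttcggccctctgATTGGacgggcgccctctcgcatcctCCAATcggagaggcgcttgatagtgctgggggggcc
Ezh1, chr11:101226464-101226713, minus strand: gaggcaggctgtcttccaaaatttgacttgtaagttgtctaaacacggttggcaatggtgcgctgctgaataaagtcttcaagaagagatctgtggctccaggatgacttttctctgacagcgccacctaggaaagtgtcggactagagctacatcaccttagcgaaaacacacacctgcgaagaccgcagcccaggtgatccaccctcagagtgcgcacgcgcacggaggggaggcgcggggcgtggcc
Suz12, chr11:79992856-79993105, plus strand: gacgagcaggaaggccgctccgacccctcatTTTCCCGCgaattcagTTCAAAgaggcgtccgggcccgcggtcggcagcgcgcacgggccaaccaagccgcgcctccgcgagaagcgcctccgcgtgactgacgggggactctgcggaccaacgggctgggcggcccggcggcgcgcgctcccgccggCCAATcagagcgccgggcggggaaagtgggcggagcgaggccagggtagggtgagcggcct
Phf19, chr2:34914027-34914215, minus strand: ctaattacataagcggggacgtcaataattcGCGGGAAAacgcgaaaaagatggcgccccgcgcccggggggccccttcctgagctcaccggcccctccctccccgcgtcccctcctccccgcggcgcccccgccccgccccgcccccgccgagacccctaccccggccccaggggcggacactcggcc
Bmi1, chr2:18676768-18677017, plus strand: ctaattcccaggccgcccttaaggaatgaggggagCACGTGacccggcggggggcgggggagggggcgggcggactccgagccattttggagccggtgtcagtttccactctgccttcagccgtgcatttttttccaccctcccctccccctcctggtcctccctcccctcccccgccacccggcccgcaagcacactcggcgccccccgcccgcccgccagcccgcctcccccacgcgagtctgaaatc
The capitals in Ezh2 are CCAAT on the opposite strand at -90 and on the gene's strand at -64, counted from the RefSeq start, with a further CCAAT match at -11 outside the stretch shown. Suz12 carried an E2F word at -219, a CHR word at -203 and CCAAT at -61, and Phf19 carried an E2F word at -208. Bmi1 carried an E-box at -215. No searched word lay in the Ezh1 window. E2F words were found in 2 of the 31 members with a promoter, Suz12 and Phf19, which are both shown. They were found in 1.78% of the 27025 genes of the table, counting any promoter of a gene. An E2F word was in 2 of 13 members higher in WT at 40 h, 0 of 6 lower and 0 of 12 not called. The E-box was found in 9 of the 31 members, and in 6.86% of all genes. CCAAT was found in 12 of the 31 members and 37.5% of all genes, and CHR in 7 of the 31 members and 18.3% of all genes. Over the 32851 single promoters the shares were 1.53% for E2F, 6.02% for the E-box, 33.8% for CCAAT and 16% for CHR. A match describes the letters and was not tested as a site.

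After hepatectomy, Ezh2 and most core genes of PRC2 rose at 40 h while a smaller group, with Cbx7, Phf1, Cbx8 and Ring1 among them, fell. In WT at 40 h, 13 members rose and 7 fell against baseline (edgeR quasi-likelihood test, Benjamini-Hochberg adjusted p under 0.05 over 14090 genes). Those are 20 of 36 members, where 36.5% of all genes tested passed in either direction, 19.2% up and 17.3% down. The median log2 difference of the members was 0.12, against 0.00 for all genes. In KO at 40 h, 10 members rose and 9 fell, and 35.6% of all genes passed. At that time 16 members passed in the same direction in both genotypes, which is 80.0% of the 20 WT calls and 84.2% of the 19 KO calls. Over all genes the shares were 75.7% of the WT calls and 77.5% of the KO calls.

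In WT the calls were most numerous at 40 and 48 h, and in both genotypes there were at most 1 from 7 days on. In WT, 5 members passed at 24 h (22.4% of all genes), 4 at 30 h (17.7%), 14 at 48 h (31% of all genes), 1 at 7 days (3.56%) and 0 at 4 weeks (1.17%). At 4 weeks 3 members were under an unadjusted p of 0.05, and DESeq2 also called 0. In KO, 5 passed at 24 h (23.7% of all genes), 13 at 30 h (33.1%), 15 at 48 h (36%), 0 at 7 days (5.56%) and 1, Cbx6, at 4 weeks (8.57%). At 7 days in KO, 3 members were under an unadjusted p of 0.05 and DESeq2 called 0. A joint F test over the 6 times called 24 members in WT, where 53.6% of all genes passed, and 23 in KO, where 65.7% did. Bmi1, Pcgf2, Phc3, Scmh1, Yaf2, Bap1 and Kdm6b were the 7 members that passed at none of those single times in either genotype, though the joint test called Bmi1 in WT. In whole liver, fewer cells of a type and less RNA per cell cannot be told apart. Alongside these changes the 17 proliferation genes fixed as a list all rose at 40 h in both genotypes, and their summed level went from 53.1 to 53.9 CPM in WT at baseline to between 1196 and 1938 CPM at 40 h. Of the 10 hepatocyte markers, 5 fell at 24 h, 3 at 40 h and 4 at 48 h in each genotype. Of the 10 endothelial markers, 5 fell in KO at 30 h (16.1% of all genes) and 5 at 48 h (17%), with 0 lower in WT at either time. KO also had 7 of them lower after 4 weeks (4.28% of all genes) and 3 after 7 days (2.5%). After 7 days 6 of the 10 stellate markers were lower in KO as well. At these later times at most 1 Polycomb member passed. Monocyte and neutrophil markers moved the other way, with 4 of 9 tested higher at 24 h in WT and 3 of 9 in KO. The part of dividing cells and of other cell types in the Polycomb changes was not tested.

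**Figure D1:**
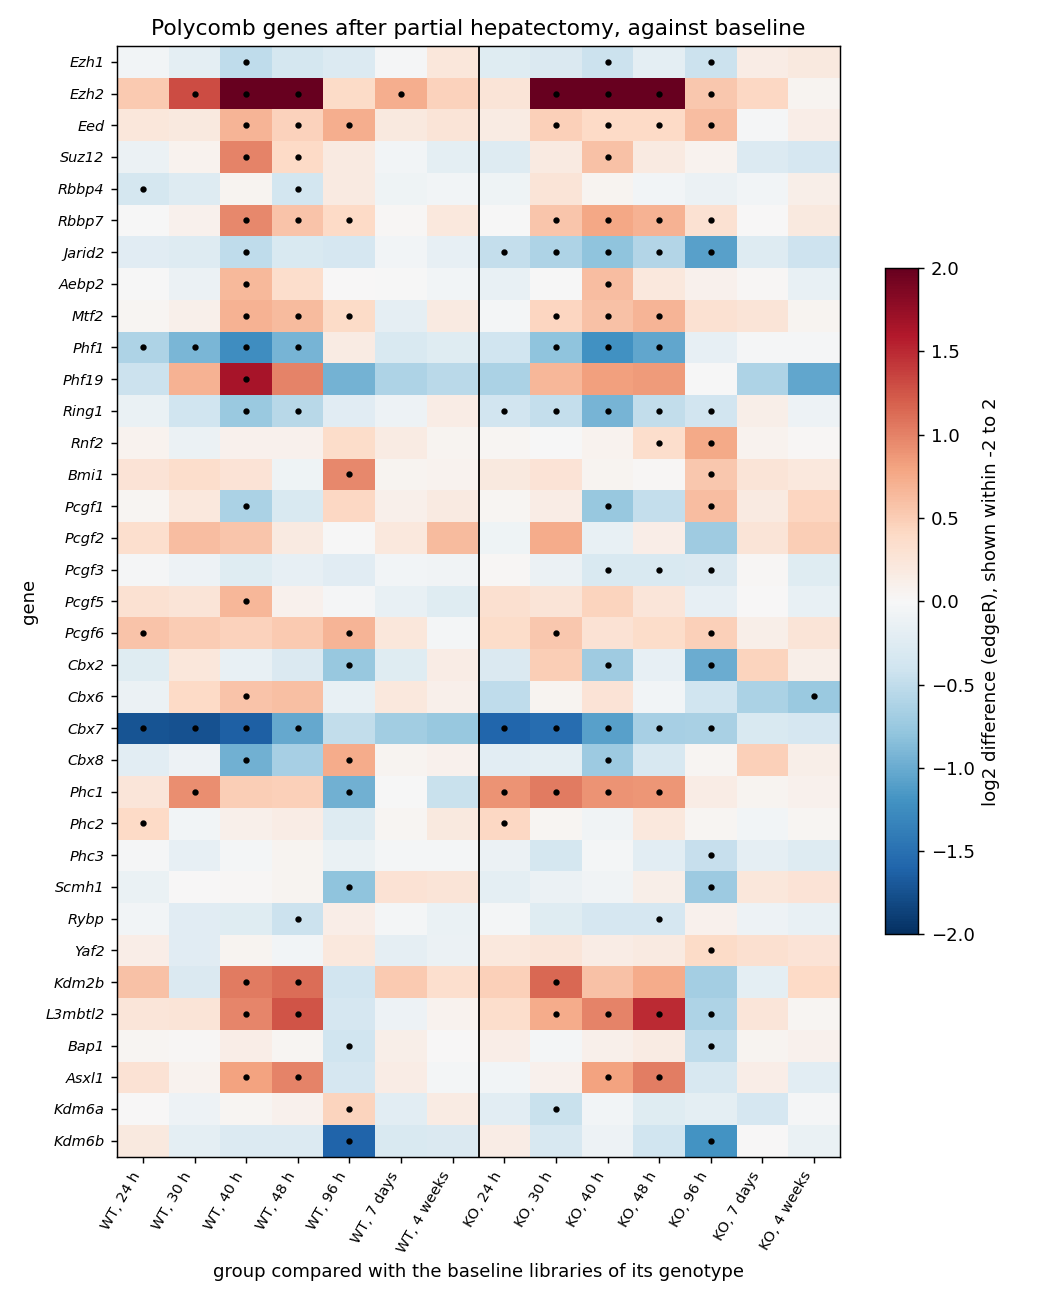
Log2 difference of 35 Polycomb genes from the baseline libraries of their genotype at each time (columns; WT left, KO right of the line), with dots where edgeR's adjusted p is under 0.05. Red is higher and blue lower than baseline, with colours held within -2 to 2. Scml2 is left out because its WT baseline libraries hold 0 counts. Ezh2 is the deepest red and Cbx7 the deepest blue between 24 and 48 h.

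Ezh2, the H3K27 methyltransferase of dividing cells, rose further than any other member with counts in all baseline libraries. In WT it stood at 1.97, 3.79 and 2.67 CPM at baseline, 4.43, 3.73 and 3.96 at 24 h, 7.56 and 6.48 at 30 h, 26.6, 20.3 and 27.6 at 40 h, and 21.2 and 15.9 at 48 h. It was back at 3.95, 4.84 and 5.17 CPM at 7 days and 3.41, 3.75 and 4.59 at 4 weeks. Every WT library from 30 to 48 h was above every WT baseline library. The log2 difference in WT was 1.31 ± 0.22 (SE) at 30 h (adjusted p = 4.66e-05), 3.14 ± 0.20 at 40 h, an 8.80-fold rise (adjusted p = 1.28e-14), and 2.72 ± 0.21 at 48 h (adjusted p = 1.64e-12). At 7 days it was 0.73 ± 0.21 (adjusted p = 0.0427). That last call ends without WT baseline replicate 1 or 3 or WT 7 days replicate 2 or 3, with an adjusted p of up to 0.197. In KO, Ezh2 was at 3.10, 3.52 and 4.22 CPM at baseline, 14.5, 12.8 and 19.3 at 30 h, 19.0, 22.9 and 21.3 at 40 h, and 24.3, 22.2 and 19.8 at 48 h. The KO log2 differences were 2.09 ± 0.19, 2.53 ± 0.19 and 2.60 ± 0.19 at those times, the highest adjusted p being 1.46e-10. Ezh2 lies on chromosome 6, from 47530139 to 47595341 on the minus strand (GRCm38, GENCODE M21).

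Ezh1, its paralog in resting cells, moved the other way and by much less. It stood at 13.1, 15.7 and 14 CPM in WT at baseline and 10.7, 10.5 and 8.65 at 40 h, with no overlap between those libraries. The log2 difference was -0.52 ± 0.14 (adjusted p = 0.00451). KO livers went from 15.5, 15.9 and 14.1 CPM to 12.3, 10.7 and 10.7, a log2 difference of -0.43 ± 0.14 (adjusted p = 0.0147). This KO call ends without KO baseline replicate 2 or KO 40 h replicate 2 or 3, with an adjusted p of up to 0.0567, and with a replicate block on the baseline and 40 h libraries alone (adjusted p = 0.0538). In both genotypes the Ezh1 call at 40 h also ends with each limma setting on the deposited FPKM values. The adjusted p is then 0.234 to 0.316 in WT and 0.150 to 0.200 in KO. On the deposited FPKM scale, which corrects for gene length, the ratio of Ezh2 to Ezh1 was 0.815 ± 0.195 (SD, n = 3) in WT at baseline and 0.818 ± 0.333 (n = 3) in KO. It reached 6.39 ± 2.31 (n = 3) in WT and 5.23 ± 0.912 (n = 3) in KO at 40 h. By 4 weeks it was 0.764 ± 0.158 in WT and 0.772 ± 0.229 in KO (n = 3 each). The lowest library at 40 h, at 4.19, was above the highest baseline library, at 1.04. No test was run on this ratio.

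**Figure D2:**
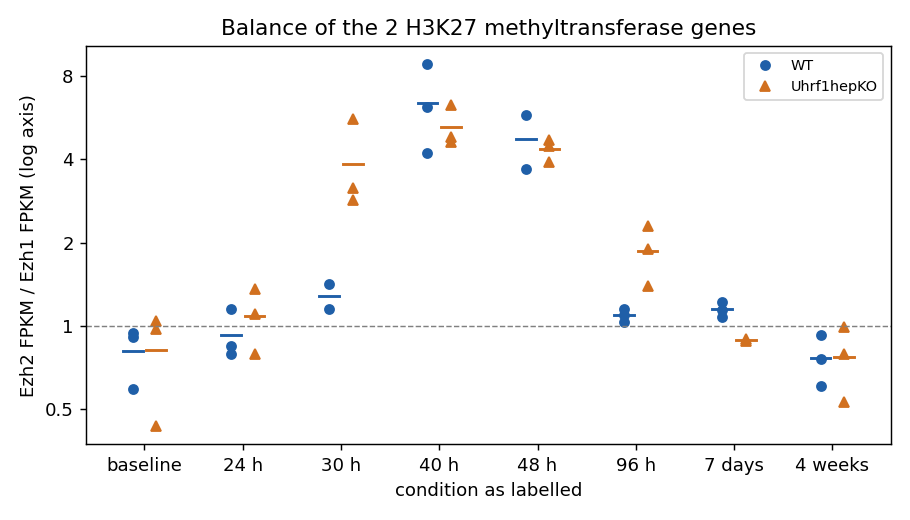
Ratio of Ezh2 FPKM to Ezh1 FPKM in each library (points; circles WT, triangles KO; log axis) by condition as labelled, with bars at the group mean and a dashed line at 1. The ratio lies near 1 at baseline and reaches means of 6.39 in WT and 5.23 in KO at 40 h. At 30 h the KO mean is 3.85 and the WT mean 1.28.

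Of the 4 other core subunits of PRC2, 3 rose at 40 h in both genotypes. Rbbp7, a histone-binding chaperone, went from 59.0, 55.1 and 56.5 CPM in WT at baseline to 113, 101 and 116 at 40 h, and 96.9 and 71.6 at 48 h. All 5 of these later libraries were above baseline. The log2 difference was 0.95 ± 0.10 at 40 h (adjusted p = 1.12e-09) and 0.57 ± 0.11 at 48 h (adjusted p = 0.000106). Without WT 48 h replicate 2 the difference at 48 h is 0.33 (adjusted p = 0.0635), and the count of members called in WT at 48 h goes from 14 to 7. In KO, Rbbp7 was already at 82.7, 84.7 and 86.8 CPM at 30 h, from 57.1, 57.8 and 58.8 at baseline (log2 difference 0.55 ± 0.10, adjusted p = 4.78e-05). Its exons overlap those of Txlng on the opposite strand, and the strand setting of the counting is not given in the sources used here.

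Suz12, which holds the complex together, went from 26.7, 25.2 and 33.0 CPM in WT at baseline to 59.1, 45.2 and 65.3 at 40 h, a log2 difference of 1.00 ± 0.13 (adjusted p = 5.86e-08). At 40 h in KO it was at 38.6, 49.6 and 48.9 CPM, from 29.5, 28.4 and 33.1 (0.59 ± 0.12, adjusted p = 0.000271). At 48 h the WT difference was 0.40 ± 0.14 (adjusted p = 0.0234), and the call ends without WT baseline replicate 1 or 2 or WT 48 h replicate 2 (adjusted p up to 0.297). Eed, which binds the trimethylated mark, rose by a log2 difference of 0.69 ± 0.13 in WT and 0.40 ± 0.13 in KO at 40 h. Rbbp4 was the exception among the core genes, with log2 differences of 0.05 ± 0.11 in both genotypes at 40 h, and it fell in WT at 24 h (-0.35 ± 0.11, adjusted p = 0.0167) and 48 h (-0.37 ± 0.12, adjusted p = 0.0192). On the FPKM scale Rbbp7 at 23.5 ± 1.1 and Rbbp4 at 21.5 ± 0.55 (SD, n = 3) were the highest of the members in WT at baseline, but both proteins serve other chromatin complexes too.

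The accessory subunits of PRC2 did not share a direction. Mtf2 and Phf1 are related Polycomb-like proteins with Tudor and PHD finger domains, and they moved in opposite directions. Mtf2 went from 5.26, 6.37 and 6.19 CPM in WT at baseline to 10.5, 8.67 and 9.64 at 40 h (log2 difference 0.69 ± 0.14, adjusted p = 0.000244), and in KO from 6.05, 4.70 and 6.23 to 7.79, 8.08 and 9.67 (0.59 ± 0.14, adjusted p = 0.00141). Neither genotype had overlapping libraries between the times. Phf1 was at 16.7, 15.2 and 15.3 CPM in WT at baseline, 10.4, 9.77 and 10.7 at 24 h, 7.97 and 8.78 at 30 h, and 6.77, 6.91 and 6.16 at 40 h. Every WT library from 24 to 48 h was below every baseline library. Its log2 difference was -0.61 ± 0.15 at 24 h (adjusted p = 0.00317) and -1.25 ± 0.16 at 40 h, a 2.38-fold fall (adjusted p = 7.19e-08). KO livers had 6.97, 7.37 and 5.93 CPM at 40 h, from 16.5, 14.9 and 15.6 (-1.21 ± 0.16, adjusted p = 1.17e-07). Exons of Mtf2 overlap Tmed5 and those of Phf1 overlap Cuta, each on the opposite strand, and both neighbours have higher counts.

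The third Polycomb-like gene, Phf19, rose in WT at 40 h from 1.24, 0.644 and 0.917 CPM to 2.36, 2.03 and 4.52 (log2 difference 1.65 ± 0.41, adjusted p = 0.00147). In KO it was at 1.09, 2.17 and 1.25 CPM at 40 h (0.81 ± 0.42, adjusted p = 0.128), which overlaps its KO baseline. Aebp2 rose at 40 h in both genotypes, by 0.66 ± 0.13 in WT and 0.61 ± 0.13 in KO on the log2 scale. Jarid2, which guides PRC2 to chromatin, fell at 40 h by a log2 difference of -0.51 ± 0.16 in WT (adjusted p = 0.0129) and -0.80 ± 0.16 in KO (adjusted p = 0.00016). KO livers also had Jarid2 calls at 24, 30 and 48 h, between -0.48 and -0.62. The difference between the genotypes in these time courses was tested for all members and passed for 0 of 36, where 0.0426% of all genes passed, with 6 members under an unadjusted p of 0.05.

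**Figure D3:**
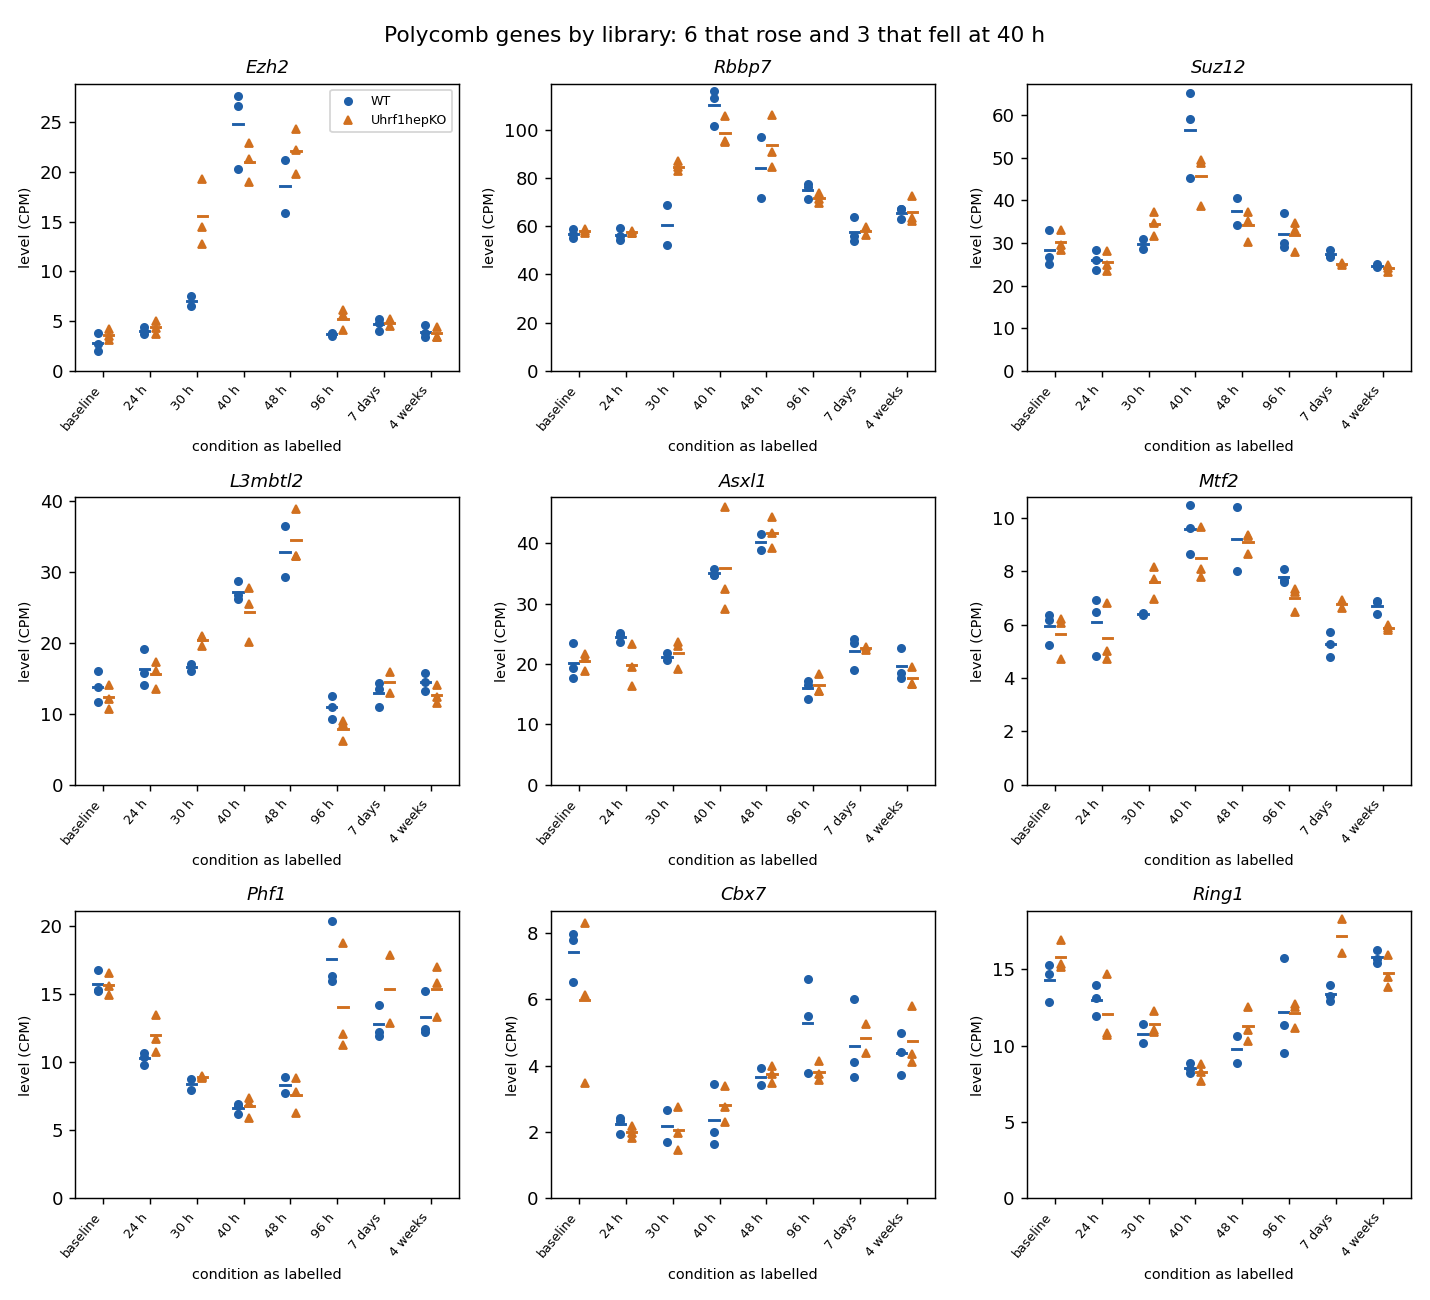
Level in CPM of 9 Polycomb genes in each library (circles WT, triangles KO) by condition as labelled, with bars at the group means and axes starting at 0. Ezh2, Rbbp7, Suz12, L3mbtl2, Asxl1 and Mtf2 are highest at 40 or 48 h outside 96 h. Phf1, Cbx7 and Ring1 are lowest between 24 and 48 h.

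In PRC1 the E3 ligase genes parted. Ring1 fell from 12.9, 15.2 and 14.7 CPM in WT at baseline to 8.48, 8.83 and 8.19 at 40 h (log2 difference -0.74 ± 0.14, adjusted p = 3.76e-05), and from 15.1, 15.3 and 16.9 to 8.28, 8.78 and 7.69 in KO (-0.94 ± 0.13, adjusted p = 8.31e-07). In both genotypes all libraries at 40 h were below all baseline libraries. Rnf2, the main ligase of most PRC1 in cultured cells, had log2 differences of 0.08 ± 0.14 in WT and 0.06 ± 0.14 in KO at 40 h, and passed in KO at 48 h (0.35 ± 0.14, adjusted p = 0.0499). The FPKM ratio of Rnf2 to Ring1 was 0.833 ± 0.201 in WT at baseline and 1.34 ± 0.170 at 40 h (SD, n = 3 each).

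Outside 96 h the deepest fall of any member was in a CBX reader. Cbx7, a canonical PRC1 reader tied to resting and differentiated cells, was at 7.96, 6.51 and 7.79 CPM in WT at baseline and 2.42, 2.32 and 1.95 at 24 h. It was at 1.69 and 2.67 CPM at 30 h, 2.00, 3.46 and 1.64 at 40 h, and 3.41 and 3.92 at 48 h, all below every WT baseline library. At 7 days it was at 3.64, 4.12 and 6.00 CPM. The log2 difference at 24 h was -1.73 ± 0.27, a 3.32-fold fall (adjusted p = 1.14e-05), and at 40 h -1.64 ± 0.27 (adjusted p = 9.07e-06). In KO it went from 8.30, 3.46 and 6.13 CPM to 2.18, 1.96 and 1.82 at 24 h (-1.58 ± 0.27, adjusted p = 4.87e-05). KO baseline replicate 2 was thus the lowest of the baseline libraries. The KO call at 48 h (-0.67 ± 0.26, adjusted p = 0.0394) ends when any of 5 libraries, KO baseline replicate 1 or 3 or KO 48 h replicate 1, 2 or 3, is left out, with an adjusted p of up to 0.329. Cbx8 also fell at 40 h, by log2 differences of -0.96 ± 0.26 in WT and -0.73 ± 0.25 in KO. Cbx6 rose in WT at 40 h (0.58 ± 0.22, adjusted p = 0.0418) and was lower in KO at 4 weeks than at baseline (-0.74 ± 0.23, adjusted p = 0.0383). Cbx2 fell in KO at 40 h (-0.70 ± 0.22, adjusted p = 0.0105). Cbx7 exons overlap Apobec3 on the opposite strand.

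The PCGF genes, which decide the type of PRC1, had small and scattered differences. Pcgf1 fell at 40 h in WT (-0.63 ± 0.23, adjusted p = 0.0325) and KO (-0.76 ± 0.23, adjusted p = 0.00934) on the log2 scale. Pcgf5 rose in WT at 40 h (0.67 ± 0.18, adjusted p = 0.00375) and Pcgf6 in WT at 24 h (0.57 ± 0.20, adjusted p = 0.0345) and KO at 30 h (0.53 ± 0.20, adjusted p = 0.035). Pcgf3 fell by 0.30 on the log2 scale in KO at 40 h (difference -0.30 ± 0.11, adjusted p = 0.0315). Bmi1, or Pcgf4, had time differences between -0.08 and 0.35 outside 96 h in both genotypes, and none passed singly. The joint F test over the 6 times called Bmi1 in WT (adjusted p = 0.0397) and not in KO (adjusted p = 0.173).

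Among the PHC genes, which join PRC1 particles into larger bodies, Phc2 rose at 24 h, from 24.5, 22.4 and 28.4 to 35.3, 32.0 and 31.7 CPM in WT (log2 difference 0.40 ± 0.11, adjusted p = 0.00576) and by 0.42 ± 0.11 in KO (adjusted p = 0.00352). It passed at no other time outside 96 h, and whether 24 h differs from the later times was not tested. Phc1 rose in WT at 30 h (0.93 ± 0.32, adjusted p = 0.0415) and in KO at 24, 30, 40 and 48 h, by 0.88 to 1.03. The WT call at 30 h ends without WT baseline replicate 1 or 2 or WT 30 h replicate 2 or 3 (adjusted p up to 0.283), and the KO calls at 24, 40 and 48 h also end without single libraries, KO baseline replicates 1 and 3 among them (adjusted p up to 0.279).

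Scml2, a sex-comb protein that joins PRC1 and is best known in the germ line, went from no counts to a low level. All 3 WT baseline libraries had 0 counts. At 40 h the 3 WT libraries had 1.65, 1.70 and 1.64 CPM, 84 counts in all, and at 48 h the 2 libraries had 3.16 and 1.29 CPM, 87 counts in all. Against a floor of 3 counts over the 3 baseline libraries, the level was at least 22.6-fold higher at 40 h and at least 31.0-fold higher at 48 h (adjusted p = 7.28e-07 and 3.3e-07). In KO, with 2 counts over the baseline libraries, the ratio was 50.6 at 40 h (95% interval 13.7 to 423, counting error only) and 62.5 at 48 h (17.0 to 520). KO libraries at 40 h had 1.85, 1.99 and 2.24 CPM. On the FPKM scale Scml2 was the lowest member in WT at 40 h, at 0.686 ± 0.30 (SD, n = 3).

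Of the 4 variant PRC1 genes, 2 rose in WT at 40 h, L3mbtl2 and Kdm2b, and 1 in KO, L3mbtl2. L3mbtl2, the chromatin reader of the PCGF6 form of PRC1, went in WT from 13.8, 11.7 and 16 CPM at baseline to 28.7, 26.1 and 26.7 at 40 h and 36.4 and 29.3 at 48 h. KO livers had 12.1, 14.1 and 10.7 CPM at baseline, 20.9, 20.8 and 19.6 at 30 h, 25.4, 20.1 and 27.7 at 40 h, and 32.2, 38.8 and 32.2 at 48 h. The libraries at 40 and 48 h were above all baseline libraries in both genotypes, and 48 h had the highest group mean. The log2 difference was 0.98 ± 0.15 at 40 h (adjusted p = 3.01e-06) and 1.25 ± 0.16 at 48 h (adjusted p = 1.94e-07) in WT, and 1.49 ± 0.15 at 48 h in KO (adjusted p = 6.48e-10). Kdm2b, the CpG island binder of PCGF1 PRC1, rose in WT at 40 h (1.04 ± 0.37, adjusted p = 0.0244) with libraries at 26.8, 11 and 29.6 CPM that overlap its baseline of 9.93, 7.44 and 15.3. Rybp fell at 48 h in both genotypes, by log2 differences of -0.43 ± 0.15 and -0.34 ± 0.14 (adjusted p = 0.0305 and 0.0482). Yaf2, its homologue, did not pass at any time but 96 h.

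In PR-DUB, which removes ubiquitin from H2A, the cofactor and the enzyme parted. Asxl1, the cofactor, was at 17.6, 23.5 and 19.3 CPM in WT at baseline, 35.7, 34.7 and 34.8 at 40 h, and 41.5 and 38.9 at 48 h. KO livers had 18.8, 21.7 and 21.1 CPM at baseline, 29.1, 32.5 and 46.0 at 40 h, and 39.2, 41.7 and 44.4 at 48 h. No library at 40 or 48 h overlapped baseline in either genotype. The log2 differences at 48 h were 1.00 ± 0.15 in WT (adjusted p = 2.52e-06) and 1.02 ± 0.14 in KO (adjusted p = 2.22e-07). Bap1, the enzyme, had log2 differences between -0.04 and 0.16 outside 96 h, none of which passed.

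The H3K27 demethylases gave few calls. Kdm6b, the inducible one, was at 12.1, 23.0 and 18.7 CPM in WT at baseline, 18.0, 20.6 and 23.3 at 24 h, and 13.0, 13.7 and 18.0 at 40 h, which all overlap. Its log2 differences outside 96 h lay between -0.39 and 0.20 in both genotypes and none passed. In the libraries labelled 96 h it fell to 6.15, 5.35 and 6.31 CPM in WT (log2 difference -1.59 ± 0.22, adjusted p = 6.19e-06) and 4.32, 5.92 and 9.89 in KO (-1.19 ± 0.22, adjusted p = 3.6e-05). In WT 12 members passed at 96 h (27.4% of all genes) and in KO 20 (44%). Kdm6a, its X-linked relative, fell in KO at 30 h (-0.44 ± 0.17, adjusted p = 0.0378).

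Between the genotypes few Polycomb genes passed, and at single times these were Ezh2 and Rbbp7 at 30 h and Bmi1 at 48 h, 7 days and 4 weeks. No member passed at baseline (0.0852% of all genes did), at 24 h (0.0426%) or at 40 h (0.142%), in edgeR's test. At those conditions 4, 2 and 6 members were under an unadjusted p of 0.05, and DESeq2 called 1 member at baseline and 0 at 24 and 40 h. At 30 h, 2 members were higher in KO and none lower, where 0.873% of all genes were higher and 0.937% passed in either direction. At that time 15.4% of all genes had no overlap and were higher in KO. Ezh2 stood at 14.5, 12.8 and 19.3 CPM in KO and 7.56 and 6.48 in WT, without overlap, a 2.22-fold difference (log2 1.15 ± 0.21, adjusted p = 0.00478). Rbbp7 stood at 82.7, 84.7 and 86.8 CPM in KO and 69.0 and 52.2 in WT, also without overlap (log2 0.49 ± 0.11, adjusted p = 0.0238). With only 2 WT libraries at 30 h, the Ezh2 call ends without WT replicate 3 (log2 1.04, adjusted p = 0.444), which leaves a lone WT library assumed to vary like the other groups. Both calls end when the 2 groups are fitted alone, with an adjusted p of 0.0573 for Ezh2 and 0.2 for Rbbp7. The Rbbp7 call ends also without WT replicate 3 (0.30, adjusted p = 0.688), KO replicate 2 (adjusted p = 0.0619) or KO replicate 3 (adjusted p = 0.0763). At the same time 8 of the 17 proliferation genes were higher in KO, and their summed level was 807 to 987 CPM in KO and 318 to 431 in WT. Their part in the Ezh2 difference was not tested. At 40 h Ezh2 was 19.0 to 22.9 CPM in KO and 20.3 to 27.6 in WT, and the change of the genotype difference from baseline to 30 h was 0.78 ± 0.29 with an adjusted p of 0.448.

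Bmi1 and Phc1 differed between the genotypes across the time course, in opposite directions. Bmi1, the PCGF partner of canonical PRC1 and a known repressor of the Cdkn2a locus, was higher in KO at 7 of 7 conditions outside 96 h. At baseline the WT libraries stood at 22.4, 18.2 and 20.6 CPM and the KO libraries at 27.9, 29.2 and 30.4. At 24 h it was 25.4, 23.9 and 24.6 in WT and 32.7, 36.5 and 31.4 in KO, at 48 h 18.0 and 20.5 against 31.4, 30.9 and 26.9, and at 4 weeks 20.2, 23.1 and 21.1 against 31.8, 30.7 and 38.9. KO libraries were all above all WT libraries at 6 of the 7 conditions, 40 h being the exception, where 1 WT library reached 30.1 CPM. Of all genes, the share with every KO library above every WT library was 6.56% before surgery, then 4.59%, 15.4%, 5% and 9.99% from 24 to 48 h, 9.24% at 7 days and 6.84% at 4 weeks. The mean log2 difference over the 7 conditions was 0.53 ± 0.05, or 1.44-fold (adjusted p = 1.11e-09). At single conditions Bmi1 passed at 48 h (0.63 ± 0.14, adjusted p = 0.0379; 0.135% of all genes), 7 days (0.72 ± 0.13, adjusted p = 0.00562; 0.135% of all genes) and 4 weeks (0.65 ± 0.12, adjusted p = 0.0051; 0.22% of all genes). These single-condition calls each end when certain libraries are left out: any of WT 48 h replicates 2 and 3 and KO 48 h replicates 1 and 2 (adjusted p up to 0.274), WT 7 days replicate 3 or KO 7 days replicate 1 (up to 0.156), and WT 4 weeks replicate 1 or KO 4 weeks replicate 3 (up to 0.105). The call at 48 h also ends with the replicate block (adjusted p = 0.0556).

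Phc1, a polyhomeotic subunit of canonical PRC1, was lower in KO at 7 of 7 conditions outside 96 h. It is a low-count gene here, at 1.75, 2.65 and 3.36 CPM in the WT baseline libraries and 1.20, 1.42 and 1.24 in those of KO. At 30 h it was 4.35 and 5.51 in WT and 2.44, 2.90 and 2.59 in KO, and at 7 days 2.17, 3.17 and 2.30 against 1.64 and 1.01. All KO libraries were below all WT libraries at 6 of the 7 conditions, with overlap at 24 h. Of all genes, the share with every KO library below every WT library was 7.07% before surgery, then 4.29%, 12.2%, 6.45% and 7.91% from 24 to 48 h, 9.07% at 7 days and 7.02% at 4 weeks. The mean log2 difference was -0.70 ± 0.12 (adjusted p = 0.000325), and no single condition passed, the largest being -1.0 ± 0.32 at baseline (adjusted p = 0.447). In that mean over 7 conditions 2 members passed, Bmi1 and Phc1, where 2.13% of all genes did, and 6 members were under an unadjusted p of 0.05. The mean difference of these 2 genes kept its direction and call with DESeq2, the other size factors, no filter, the replicate block, the 3 limma settings, without the 96 h libraries and with any single library left out. Neither gene overlaps another annotated exon. Of the genes within 200 kb of Bmi1, Commd3 just upstream had a mean log2 difference of 0.12 ± 0.06 (adjusted p = 0.43) and Pip4k2a 0.06 ± 0.12 (adjusted p = 0.95). Next to Phc1, M6pr, which ends beside it on the opposite strand, was slightly lower in KO (-0.12 ± 0.03, adjusted p = 0.0236). Marker sums of other cell types also differed between the genotypes at some conditions. At baseline the 10 Kupffer cell markers summed to 203 to 283 CPM in KO and 117 to 185 in WT, the 10 endothelial markers to 256 to 267 and 197 to 238, and the 10 monocyte and neutrophil markers to 32.6 to 41.4 and 16 to 27.4. Of the last list 1 gene in KO and 2 in WT were at 0 in all baseline libraries. At 24 h the 7 cholangiocyte markers were lower in KO (40.3 to 56.7 against 57.4 to 94.6 CPM). The 7 erythroid markers were higher in KO at 30 h (213 to 237 against 90.8 to 169 CPM) and lower at 40 h (171 to 234 against 259 to 325). The 10 lymphocyte markers were higher in KO at 24 h (1.96 to 5.92 against 1.39 to 1.95 CPM) and 40 h (2.07 to 2.93 against 1.51 to 1.94). At 48 h the 10 stellate markers were lower in KO (263 to 357 against 366 to 420 CPM), as were the 7 erythroid markers (157 to 259 against 271 to 293), and the 10 lymphocyte markers were higher (2.41 to 2.54 against 1.23 to 2.22). At 7 days erythroid markers were higher in KO (353 to 379 against 209 to 342 CPM) and monocyte and neutrophil markers lower (44.9 to 49.4 against 55.4 to 104), and at 4 weeks the 7 cholangiocyte markers were lower (27.1 to 43.3 against 45.8 to 65.3). At 4 weeks the Kupffer markers were at 133 to 178 CPM in KO and 131 to 195 in WT. The sums were not tested, and no single marker of these lists passed between the genotypes at any of the 7 conditions in edgeR's test. In the mean over 7 conditions 1 of the 5 lymphocyte markers tested was higher in KO, with a median log2 difference of 0.63 over the 5. The part of these cell types in the differences of Bmi1 and Phc1 was not tested.

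**Figure D4:**
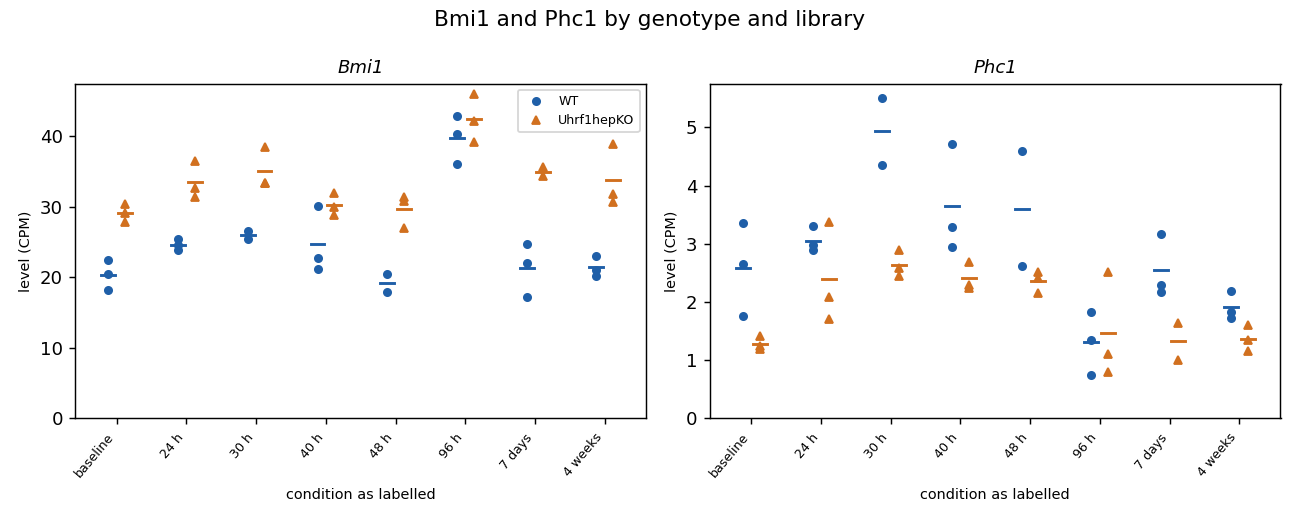
Level in CPM of Bmi1 and Phc1 in each library (circles WT, triangles KO) by condition as labelled, with bars at group means and axes from 0. Bmi1 is higher in KO and Phc1 lower in KO at the 7 conditions outside 96 h. Those labelled WT at 96 h lie at 36.1 to 42.8 CPM for Bmi1 and 0.742 to 1.83 CPM for Phc1.

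Between the libraries labelled KO and WT at 96 h, 6 members passed and 14.3% of all genes did. Scml2 was higher in the libraries labelled KO, at 0.0901, 0.650 and 0.668 CPM against 0.183, 0.0742 and 0 (adjusted p = 0.046), on 21 and 4 counts in all. Rbbp4 (-0.59 ± 0.11, adjusted p = 0.000473), Jarid2 (-0.58 ± 0.17, adjusted p = 0.017), Cbx8 (-0.71 ± 0.25), L3mbtl2 (-0.46 ± 0.16) and Kdm6a (-0.48 ± 0.17) were lower in them, the last 3 with adjusted p between 0.0486 and 0.0495. The count goes from 6 to 1 without WT 96 h replicate 2, to 2 without KO 96 h replicate 2, and is 0 when the 2 groups are fitted alone. The hepatocyte markers summed to 201130 to 342381 CPM in the libraries labelled KO at 96 h, above every other group. Singly, 1 of the 10 was higher there than in those labelled WT, and their median log2 difference was 0.18. The TMM factors of the libraries labelled KO at 96 h were 0.661, 0.848 and 0.902. Kupffer markers summed to 461 to 821 CPM against 266 to 382. The part of these cell types in the differences was not tested, and genotype at 96 h cannot be told apart from the labelling.

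Genes that work with these complexes, were counted over a list of 39 partner subunits and cofactors. Of the 35 tested, 9 rose and 4 fell in WT at 40 h, where 19.2% of all genes rose and 17.3% fell, 36.5% together. Tfdp1, the dimer partner of E2F factors and of the E2F6 form of PRC1, rose by 1.76 on the log2 scale and Epop, which links PRC2 to elongin, by 1.51. Ogt, the glycosyltransferase that works with PR-DUB, fell, with a log2 difference of -0.96. Between the genotypes 1 of the 35 passed at 30 h, Tfdp1, which was higher in KO by 0.67 (adjusted p = 0.032). Of the 64 classic Polycomb target genes listed, developmental regulators held silent in most adult tissue, 39 were in the table and 18 had enough counts to be tested. In WT at 40 h 1 of the 18 rose, Gata6 (log2 1.37), and 2 fell, Six2 (-1.17) and Bmp4 (-0.93), against the same 19.2% and 17.3% of all genes. Between the genotypes 0 of the 18 passed at each of the 7 conditions outside 96 h in edgeR's test, where 0.0426% to 0.937% of all genes did. At these conditions 0 to 3 of the 18 were under an unadjusted p of 0.05. With so few genes passing, a count of 0 of 18 does not show that the targets were unchanged. No other tool was counted for this list. Since only targets with counts could be tested, the count says nothing of the silent ones.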

How the data were processed

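Poly(A) RNA-seq of 45 mouse liver libraries was taken from 2 deposited tables. Counts per gene are raw counts that the authors deposited, and FPKM values are the authors' own. The submitters' processing notes name FastQC 0.11.5, Trimmomatic, TopHat2 2.1.0, HTSeq, Cufflinks 2.2.1 and DESeq2 and the build mm10, without roles or settings. Totals were 12.85 M to 23.13 M counts per library.

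Counts were filtered (filterByExpr), scaled by TMM and fitted with 16 group means in edgeR 4.0.16 (R 4.3.3), quasi-likelihood with robust dispersion. The spread was estimated from all 45 libraries, with 29 residual degrees of freedom, and p-values were adjusted (Benjamini-Hochberg) over 14090 genes, with 0.05 as the threshold. The SE is the absolute log2 difference over the square root of F. Comparisons with baseline share the baseline libraries of their genotype. Levels of different genes were compared only by the deposited FPKM. Gene positions are from GENCODE M21. The fit was tested on simulated counts.

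Values of single libraries, at some of the conditions, were given for Ezh1, Ezh2, Bmi1 and Kdm6b and for members called between genotypes outside 96 h. They were also given for the 10 members with the smallest joint p over the WT time course, and others were named by role. Values of 1 other called gene of the partner list are not reported here. The other genes named were chosen after their values were seen. The members and lists were chosen with earlier results of these data known. The alternatives were DESeq2 1.42.0, limma 3.58.1 on log2(FPKM + 1) and log2(FPKM + 0.1) of the authors' deposited values, other size factors, no filter, 2 groups fitted alone, no 96 h libraries, a replicate block and each library left out. Each pair of replicates differed beyond sampling noise.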

Additional observations from a re-analysis of the deposited data

How the results depend on the processing

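Of the 97 single-gene results, DESeq2 kept the direction and call of 94, other size factors (relative log expression) 95, no filter on low counts 91, and limma on log2(FPKM + 1) 68. Leaving out the 96 h libraries kept 79 of 79, and fitting the 2 compared groups alone, with fewer samples, 71 of 93. Replicate numbers were shared by the groups, and whether they pair the libraries was not settled. Same-numbered KO and WT libraries of a time had correlations of their deviations between -0.306 and 0.306. The median was 0.0895, and 8 of 21 pairs were over 0.1. For different numbers the median was -0.0360, and 10 of 42 pairs were over 0.1. The baseline columns carry the 40 h name, and same-numbered baseline and 40 h libraries of a genotype were over 0.1 in 3 of 6 pairs (different numbers, 1 of 12). The medians were 0.0957 for the same number and -0.0508 for different numbers. Weak correlations cannot exclude pairing, and the main comparisons with baseline did not pair libraries. A replicate block on those libraries alone ended the Ezh1 call in KO at 40 h (adjusted p = 0.0538) and kept 22 of 23 results. The replicate block moved the count of members between genotypes at 48 h from 1 to 0 and no other count by over 1.5 times. Between genotypes, the count at baseline, 0 here, was 1 with DESeq2 and with limma at log2(FPKM + 1), log2(FPKM + 0.1) and without the filter. At 30 h both calls, Ezh2 and Rbbp7, were lost with the groups fitted alone (adjusted p = 0.0573 and 0.2), where the count was 1, Kdm2b (log2 1.18, adjusted p = 0.0369). At 48 h, 7 days and 4 weeks the 1 call became 0 with the groups alone and with limma, except at 48 h with no FPKM filter. At 96 h the 6 calls became 3 with other size factors, 2 with no filter, 0 with the groups alone and 1 with each limma setting. Against baseline with the groups alone, the counts became 8 of 14 in WT at 48 h, 6 of 12 in WT and 8 of 20 in KO at 96 h, 3 of 5 in KO at 24 h, 0 of 1 in WT at 7 days and 2 in place of 1 in KO at 4 weeks. With limma they became 6, 6 and 5 in WT at 96 h, 0 in WT at 7 days, 3 in KO at 24 h, 1 in place of 0 in KO at 7 days and 3 in KO at 4 weeks. No filter gave 0 in WT at 7 days and in KO at 4 weeks, and DESeq2 and leaving out the 96 h libraries gave 2 in WT at 7 days. With 1 library left out, the counts between genotypes ranged from 0 to 2 at 30 h, 0 to 1 at 48 h, 7 days and 4 weeks, and 1 to 5 at 96 h. In WT against baseline they ranged from 3 to 5 at 24 h, 3 to 4 at 30 h, 16 to 22 at 40 h, 7 to 15 at 48 h, 8 to 15 at 96 h and 0 to 1 at 7 days. In KO they ranged from 2 to 6 at 24 h, 10 to 12 at 30 h, 14 to 20 at 40 h, 10 to 13 at 48 h, 15 to 19 at 96 h and 0 to 2 at 4 weeks, and the mean over 7 conditions called 2 to 3. At 96 h the Bmi1 difference reversed to -0.00065 with limma at log2(FPKM + 0.1), and Phc1 from 0.11 to -0.0913 with log2(FPKM + 1), with or without the filter, -0.32 with log2(FPKM + 0.1), -0.16 without WT 96 h replicate 2 and -0.47 without KO 96 h replicate 1, and ranged from -0.47 to 0.44 with 1 library left out. Apart from group size, the causes were not tested. DESeq2 was not run for the joint tests.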
